A study of Mus musculus and Rattus norvegicus with 24 samples.

Results

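Transplanted cardiomyocytes were divided by how many genes gave reads in each cell. Of the 8 transplanted cells, among 24 cells in all, 4 had at least 1 count for 800 or more genes (cells A, B, D and G, here the many-gene cells) and 4 had fewer (cells C, E, F and H, the few-gene cells). The cells were chosen by this readout, so the difference in gene number is fixed by the choice and every value below describes these 8 cells without a test. The cells came from mouse embryonic stem cells carrying Isl1-Cre, Rosa-RFP and aMHC-GFP, were differentiated to cardiomyocytes and spent 30 days in a neonatal rat heart. In such a line Cre from the Isl1 locus marks descendants of cardiac progenitors red, and the alpha myosin heavy chain promoter marks cardiomyocytes green. Cells were isolated by sorting or by manual picking, and the method used for a given cell is not labelled. The labels name no host animal, so the 8 cells count as 1 sample. Wild-type adult rat ventricular cardiomyocytes (8 cells) serve as a reference that the division did not use, and their reads were set against mouse genes. Cultured cells were not used here.

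A ventricular cardiomyocyte spends most of its messenger RNA on few products: the filaments of the sarcomere, the respiratory chain of its mitochondria, and the proteins that move calcium and fatty acids. Each beat starts with calcium release from the sarcoplasmic reticulum through the ryanodine receptor and ends when the pump SERCA2, encoded by Atp2a2, takes the calcium back. The number of genes seen in a single-cell library depends on what the cell makes, on how much RNA was captured and copied, and on sequencing depth, and these cannot be told apart from a count of genes.

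The many-gene cells had 988 (A), 1427 (B), 846 (D) and 1072 (G) genes with a count. The few-gene cells had 553 (C), 583 (E), 662 (F) and 612 (H). The cells nearest the threshold were therefore D with 846 genes and F with 662. Depth did not follow this division: total counts were 141965, 124201, 156426 and 100154 in the many-gene cells and 88796, 195749, 151356 and 344224 in the few-gene cells. The deepest cell, H, was a few-gene cell, and the sums were 522746 and 780125 counts. After thinning each cell to 88796 counts, the median was 994.8 genes in the many-gene and 557.8 in the few-gene cells, against 1030 and 597.5 before. No pair of the 8 cells agreed within sampling noise, the lowest chi-square per degree of freedom being 36.8.

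The difference in the number of genes lay at low and middle levels, though single genes counted only in many-gene cells reached high levels, as given below. A level is given per 1000000 counts of the cell's total (CPM). Genes at 1000 CPM or above numbered 200, 201, 219 and 225 in the many-gene cells and 206, 210, 210 and 199 in the few-gene cells, so the ranges overlapped. At 100 CPM or above the ranges were 568 to 833 and 408 to 483 genes, with no overlap. The 50 highest genes of a cell took 46.0% to 52.3% of its counts in many-gene cells and 56.6% to 57.6% in few-gene cells. Both sets thus had about as many abundant genes, and the remaining counts were spread over more genes in A, B, D and G.

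**Figure D1:**
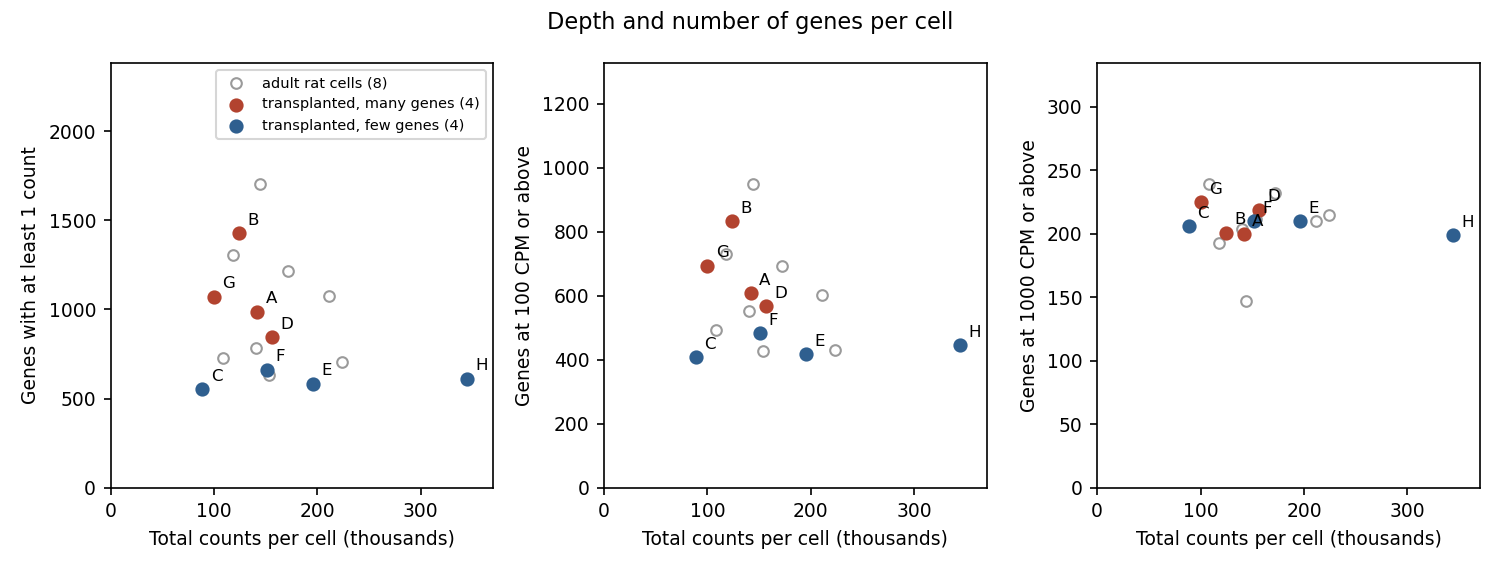
Total counts per cell (horizontal axis, in units of 1000) against the number of genes with at least 1 count, at 100 CPM or above, and at 1000 CPM or above; each point is a cell, with letters for the transplanted cells and open circles for the adult rat cells. The few-gene cell H is the deepest with 344224 counts, and in the right panel all 8 transplanted cells lie between 199 and 225 genes.

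In all, 3129 genes had a count in at least 1 of the 8 cells, 2640 in a many-gene cell and 1429 in a few-gene cell. Both sets shared 940 genes, 1700 were counted only in many-gene cells and 489 only in few-gene cells. Most of the unshared genes came from a single cell: 1366 genes were counted in 1 many-gene cell alone and 438 in 1 few-gene cell alone. Genes counted only in many-gene cells held 14.2% (A), 20.2% (B), 14.5% (D) and 20.7% (G) of the counts there. Genes counted only in few-gene cells held 4.31% (C), 7.12% (E), 7.10% (F) and 5.76% (H). Of the genes counted only in many-gene cells 54.2% also had a count in an adult cell, and of those only in few-gene cells 53.8%. Of the 940 genes in both sets, 91.4% did.

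Sorting genes by their level in the adult cells showed where the sets parted. All 61 genes above 3000 CPM in the adult sum were counted in each of the 8 transplanted cells. Of 391 genes at 300 to 3000 CPM, many-gene cells counted 53.7% to 70.8% and few-gene cells 41.4% to 51.2%. Of 1287 genes at 30 to 300 CPM the ranges were 20.0% to 34.3% and 13.1% to 15.4%. Even among the 5944 genes with no adult count, 2.56% to 6.28% and 1.23% to 1.53% were counted. The ranges did not overlap in any class below the highest, as the choice of cells largely fixes. These classes, the level thresholds above and the length classes below were chosen after the data were seen.

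Exon length moved with the division. The median exon length of the genes counted in a cell was 3135 to 3588.5 bp in many-gene and 2537.5 to 2754 bp in few-gene cells. Among 2266 genes with at least 10 counts over the 8 cells, 1299 (57.3%) were at least 2-fold higher in the sum of the many-gene cells and 594 (26.2%) at least 2-fold lower. Of the 2266, 1048 had no count in the few-gene cells and 325 none in the many-gene cells, and 1047 were counted in 1 cell only. The excess of genes called higher is thus largely fixed by the choice of cells. The 5 length classes of compared genes use the same calls. These shares are the background for every list below. In 5 equal classes of exon length, from the shortest to the longest, the share at least 2-fold higher was 37.3%, 51.7%, 55.9%, 64.2% and 77.6%. Among the 139 genes counted in all 8 cells, 3 classes from short to long had 2.22%, 6.67% and 19.6% at least 2-fold higher and 6.67%, 13.3% and 15.2% at least 2-fold lower, with a median log2 ratio of -0.23, -0.21 and -0.21. The part of exon length in the results below was not tested.

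**Figure D2:**
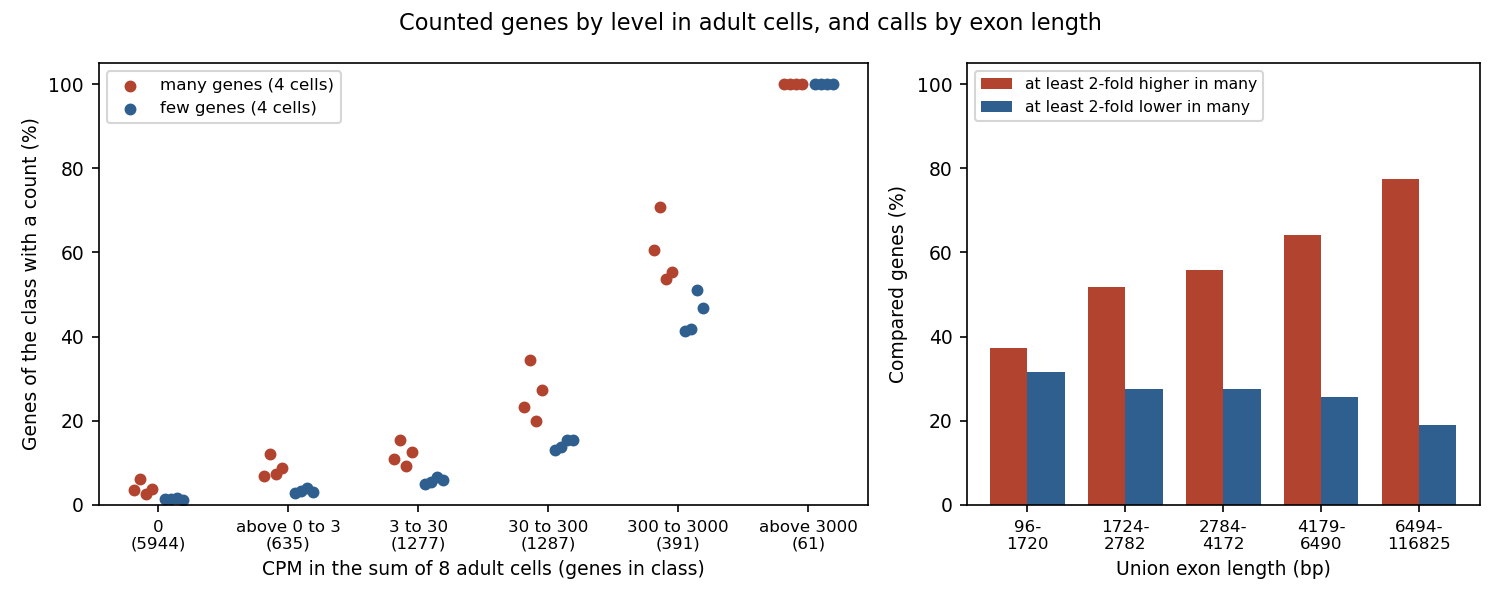
Left, share of genes with a count in each transplanted cell (points) by level in the sum of the adult cells, with the number of genes in brackets; right, share of the compared genes at least 2-fold higher or lower in the many-gene sum, by 5 equal classes of exon length. The sets of cells come together at 100% in the highest class, and the share called higher goes from 37.3% in the shortest class to 77.6% in the longest.

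No gene was counted in all 4 few-gene cells and no many-gene cell, whereas 13 genes were counted in all 4 many-gene cells and no few-gene cell. They were Sdhd, Cfl2, Golga4, Grb14, Eif4g2, Ankrd1, Mien1, Mfn2, Tcap, Hspa9, Acsl1, Eif2b5 and Rrad. For 3 of 4 cells against none, the numbers were 60 and 6 genes. Ratios against a set at 0 were taken to a floor of 3 counts over its sum and are lower bounds for counting error only, which do not cover transcripts lost before amplification, and without cell H, the deepest, every such bound is divided by 1.79.

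Sdhd, a membrane anchor of succinate dehydrogenase (respiratory complex II), had the highest level of the 13, with 21.1, 1135, 2154 and 2916 CPM in A, B, D and G. Its sum was at least 385-fold higher than in the few-gene cells, but cell A held only 3 counts. Cfl2, the muscle form of the actin-severing protein cofilin, was at 402, 612, 1771 and 1957 CPM (at least 301-fold higher). Tcap, which caps titin at the Z disc, was at 493, 668, 179 and 489 CPM, the most even of the genes described here. Ankrd1, a titin-binding stretch-response protein, was at 303, 1699, 83.1 and 439 CPM, and without B its bound of 155-fold was 65.2-fold. Mfn2, which fuses mitochondrial outer membranes, was at 648, 161, 70.3 and 1068 CPM. Acsl1, which activates long-chain fatty acids for oxidation, was at 120, 258, 441 and 99.8 CPM. Its bound was 63.7-fold, and 41.9-fold without D.

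Several of these genes were also missing from many adult cells. Sdhd had counts in 7 of 8 adult cells and Ankrd1 in 8 of 8, but Cfl2, Grb14, Acsl1 and Mien1 in 3 of 8, and Mfn2 in 1 of 8. Rrad, a small GTPase that restrains calcium channels, had 59 of its 62 counts in cell B. Grb14, an adapter of the insulin receptor, was at 148, 660, 1764 and 779 CPM. Eif4g2, a scaffold of translation initiation, was at 120, 636, 1758 and 369 CPM, and without D its bound of 203-fold was 94.4-fold. Golga4, a Golgi tether, was at 2134, 1562, 12.8 and 240 CPM, with 2 counts in D.

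**Figure D3:**
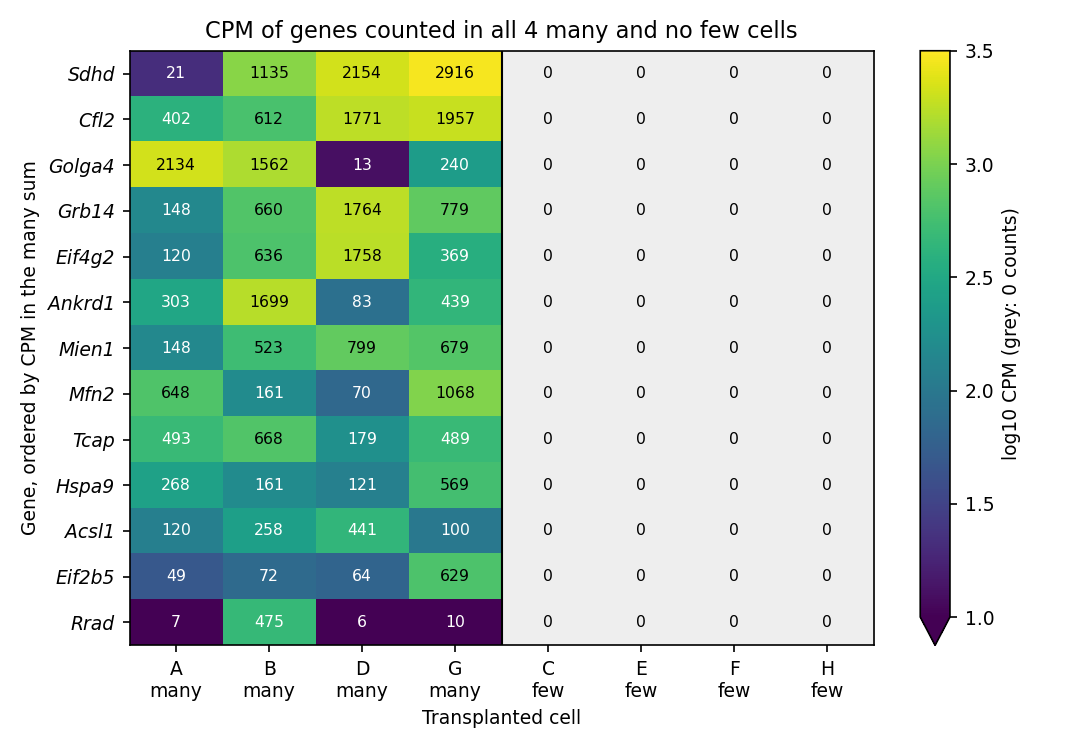
Level in CPM (numbers and colour, log10 scale) of the 13 genes counted in all 4 many-gene cells and no few-gene cell; columns are cells, rows are ordered by level, and grey marks 0 counts. Sdhd ranges from 21.1 to 2916 CPM and Golga4 from 12.8 to 2134 CPM among the many-gene cells, while Tcap stays between 179 and 668 CPM.

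Promoter sequence was looked at for this set because its genes were counted in the same 4 cells, which is how they were picked. Windows on 1 chromosome, and windows short of full length, were left out of the RefSeq table for GRCm38.p6 (the mm10 build). What remained held the start of 8 of the 13 genes and is also the background below. In the 250 bases before each start, on both strands, the CCAAT box (CCAAT) was present in 5 of 8 genes (Cfl2, Ankrd1, Mien1, Acsl1 and Eif2b5), against 33.8% of 32851 windows of the same length. TATAAA was in 0 of 8, against 12.4%, and AAGGTCA, bound by estrogen-related receptors, in 0 of 8, against 4.08%. Ankrd1 alone held AGATAA, which transcription factors of the family of Gata4 bind, against 9.99%. A gene with more than 1 listed start counted once if any window matched, so the count per gene and the share of windows are not the same quantity. Acsl1 and Eif2b5 are shown because their windows cover no annotated exon and because Acsl1 has 2 listed starts, which counts per gene do not separate. Capitals mark CCAAT on either strand, and all 3 windows lie on the plus strand, at chr8:46470787-46471036, chr8:46490716-46490965 and chr16:20498567-20498816.
Acsl1, upstream start: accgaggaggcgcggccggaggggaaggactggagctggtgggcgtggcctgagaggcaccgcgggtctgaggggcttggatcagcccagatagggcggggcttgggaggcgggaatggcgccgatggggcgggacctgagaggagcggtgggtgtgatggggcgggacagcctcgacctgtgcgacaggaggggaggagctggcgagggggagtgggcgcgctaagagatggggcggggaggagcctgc
Acsl1, downstream start: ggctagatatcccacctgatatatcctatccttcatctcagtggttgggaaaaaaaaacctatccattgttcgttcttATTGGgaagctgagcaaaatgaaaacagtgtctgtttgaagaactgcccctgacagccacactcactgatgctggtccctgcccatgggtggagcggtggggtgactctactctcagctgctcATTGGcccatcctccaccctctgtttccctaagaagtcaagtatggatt
Eif2b5: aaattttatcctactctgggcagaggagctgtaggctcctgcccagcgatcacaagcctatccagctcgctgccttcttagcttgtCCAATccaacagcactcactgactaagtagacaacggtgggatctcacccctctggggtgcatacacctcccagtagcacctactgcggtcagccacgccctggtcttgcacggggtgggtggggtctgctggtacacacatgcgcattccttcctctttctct
The upstream Acsl1 window holds no CCAAT, the downstream window holds 2 and the Eif2b5 window 1. A match is a description of letters and was not tied to the counts.

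The 139 genes counted in all 8 cells allow a comparison that their own detection does not set. Their median log2 ratio was -0.20, and they held 57.8% to 65.3% of the counts in many-gene cells and 68.5% to 70.6% in few-gene cells. Their CPM still depends on the choice of cells. Genes counted only in many-gene cells took 14.2% to 20.7% of the counts there, and genes counted only in few-gene cells 4.31% to 7.12%. A lean of the 139 genes toward lower CPM in many-gene cells is thus partly set by the choice. By the 2-fold call, 13 of them (9.35%) were higher in the many-gene sum and 16 (11.5%) were lower. Atp2a2 was the only gene (0.719%) with every many-gene cell above every few-gene cell. In the opposite direction there were 8 (5.76%): Fkbp3, Gapdh, Cryab, Cox7c, Ndufv3, Myl2, Atp5g3 and Atp5j2. Scaled to the counts of the 139 genes alone, 3 were higher and 5 lower without overlap. Among all 2266 compared genes the numbers without overlap were 26 higher (1.15%) and 11 lower (0.485%).

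Atp2a2, the calcium pump of the sarcoplasmic reticulum (chr5:122453513-122502225, minus strand), was at 2486.5 (A), 6127 (B), 3369 (D) and 5761 (G) CPM in many-gene cells. In few-gene cells it was at 653 (C), 940 (E), 1018 (F) and 1424 (H) CPM. The lowest many-gene cell was thus above the highest few-gene cell, and the sum was 3.74-fold higher (95% interval 3.45 to 4.04, for counting error only). Leaving out each cell in turn gave 3.22-fold to 4.67-fold. Adult cells spread from 612 to 10922 CPM, which covers both sets.

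Excitation-contraction coupling as a list, of which Atp2a2 is a member, stood in the same direction. Its share of counts was 1.90%, 2.12%, 1.52% and 1.97% in A, B, D and G and 0.846%, 0.965%, 1.11% and 1.04% in C, E, F and H, with no overlap. Of 14 compared members, 10 were at least 2-fold higher in the many-gene sum and 1 lower, with a median log2 ratio of 2.47, against 3.43 over all compared genes. With zero sums set to the floor these medians were 2.49 and 2.45. Trdn, which encodes triadin and anchors the release complex, was at 486, 2238, 914 and 1548 CPM in many-gene cells and at 66.1 CPM in F, with no count in C, E and H. Its sum was 96.3-fold higher (52.0 to 202), 259-fold without F and 53.8-fold without H. Ryr2, the calcium release channel, overlapped: 70.4, 531, 556 and 290 CPM against 586 (C), 0, 39.6 (F) and 0. Its ratio of 4.94 was 42.3 without C and 2.76 without H.

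Members counted in every cell were less apart. Pln, the phospholamban that restrains the pump, was at 10531, 5974, 5856 and 6670 CPM in many-gene cells and at 5586, 7137, 4004 and 2978 CPM in few-gene cells, and the ranges overlapped. Its sum was 1.62-fold higher (1.55 to 1.69). S100a1, a calcium sensor of the pump and channel, was 1.23-fold lower (1.16 to 1.31), with overlap, and 1.16-fold higher without H. Srl had 439 of its 448 counts in B, and Casq2, the calcium store protein calsequestrin, had counts in A and G alone. Calm2 was the member that was lower, with 443 CPM in F and no count elsewhere. Among the counts of the 139 genes in all cells, 3 members (Atp2a2, Pln and S100a1) took 1.99% to 2.89% in many-gene and 1.12% to 1.50% in few-gene cells. Of these 3 only Atp2a2 was without overlap by itself, so their joint share is no separate result for the list.

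Respiratory complex I, which passes electrons from NADH to ubiquinone, stood the other way. Its 36 listed subunits took 10.4%, 8.90%, 9.05% and 9.17% of counts in A, B, D and G and 12.6%, 12.7%, 11.9% and 13.2% in C, E, F and H, with no overlap. The difference between the sums, 3.32 percentage points, was 2.97 to 3.70 when each cell was left out in turn. Of the 36, 2 were at least 2-fold higher, 5 lower and 29 in between, and the median log2 ratio was -0.51. The shift was thus spread over many subunits of modest ratio. The 27 subunits counted in all 8 cells took 12.2% to 14.7% of the counts of the 139 shared genes in many-gene cells and 16.5% to 17.0% in few-gene cells, so the ranges stayed apart in that denominator.

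Ndufv3, a small subunit of the NADH-binding module (chr17:31520115-31531331, plus strand), was at 3247, 2375, 2762 and 4283 CPM in many-gene and 5462, 6856, 4929 and 4962 CPM in few-gene cells. It was the subunit without overlap and was 1.77-fold lower (1.68 to 1.88). Ndufb5 was at 9439, 2681, 697 and 2506 CPM against 6352, 10953, 13254 and 7922 CPM, and cell A alone made the ranges overlap: the sum was 2.45-fold lower, and 5.24-fold lower without A. Ndufa12 was 3.23-fold lower, but 1.26-fold lower without H, which held 1013 of its 1295 few-gene counts. Ndufa9 was 2.03-fold higher, with no count in F, and 1.62-fold to 1.86-fold higher, below the 2-fold call, without A, C, D or F.

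Complexes II to V, 43 listed genes from succinate dehydrogenase to ATP synthase, differed less. Their share was 16.5% to 18.9% in many-gene and 18.5% to 19.8% in few-gene cells, with overlap. Here 4 were at least 2-fold higher, 6 lower and 33 in between, with a median log2 ratio of -0.08. Among the 139 genes in all cells the difference turned sign, from -1.76 to 0.668 percentage points, many-gene minus few-gene. Atp5g3 and Atp5j2, both of the membrane part of ATP synthase, were without overlap but only 1.36-fold (1.29 to 1.43) and 1.35-fold (1.29 to 1.41) lower. Atp5g3 was at 4550, 3986, 4028 and 4573 CPM against 4640, 4966, 6680 and 6141 CPM, so its ranges nearly touch. Succinate dehydrogenase was uneven: Sdhd was counted only in many-gene cells, Sdha in B, D and G alone, and Sdhc in B, D and G and in E and F, at up to 390 CPM in the former and 3642 CPM in the latter. Sdhb, counted in every cell, was at a ratio of 1.06, and 0.780 without G.

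**Figure D4:**
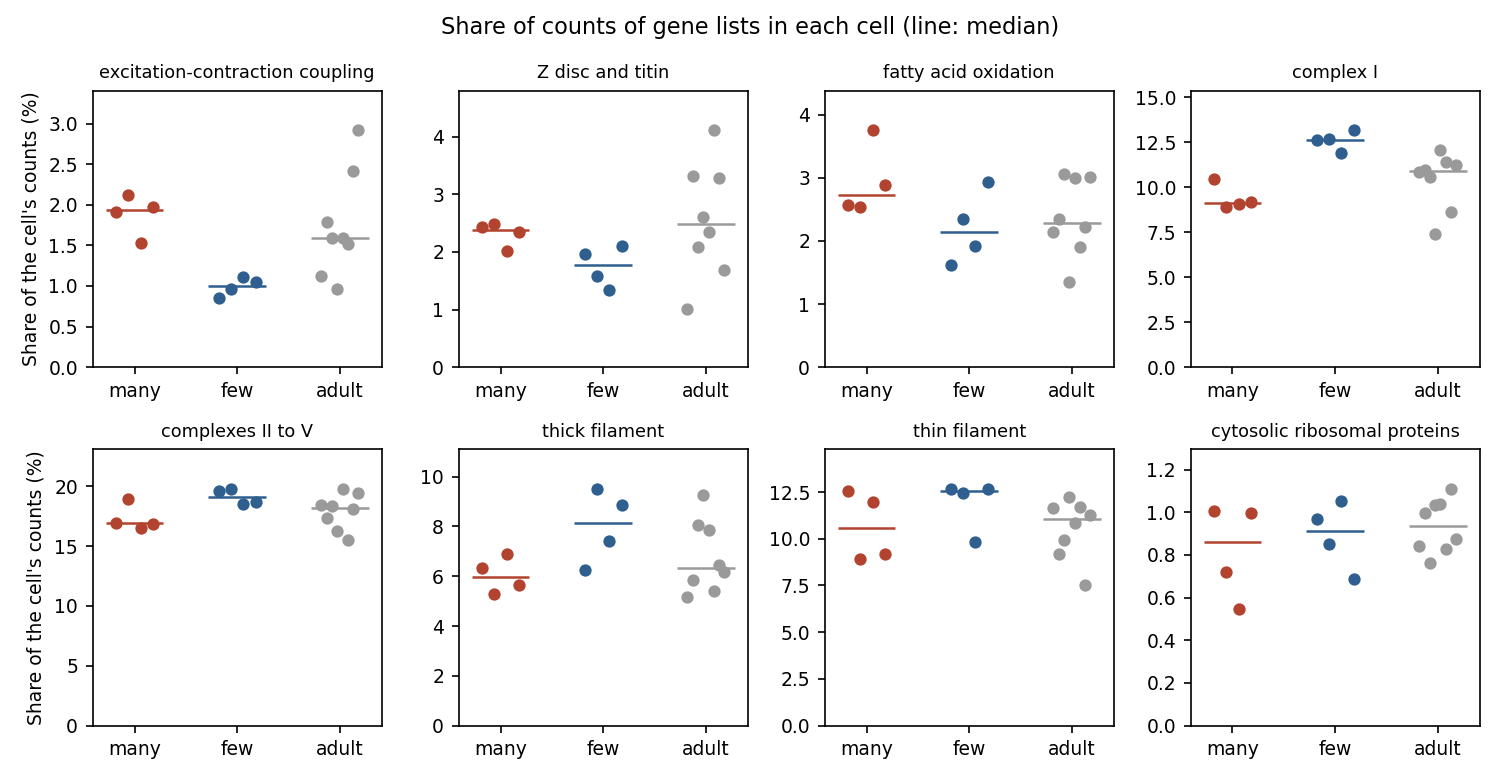
Share of each cell's counts taken by 8 gene lists (vertical axes, percent, each from 0), for many-gene, few-gene and adult cells; points are cells and lines are medians. Excitation-contraction coupling and complex I are apart between the transplanted sets in opposite directions, and the adult cells lie across or between these ranges.

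Fatty acid uptake and oxidation, the main fuel route of the adult heart, had 11 of 20 compared members at least 2-fold higher and 3 lower, with a median log2 ratio of 1.42. Many-gene cells counted 16 to 21 of its genes and few-gene cells 7 to 12, while the shares of counts overlapped (2.53% to 3.76% and 1.62% to 2.93%). Cd36, the membrane transporter of fatty acids, was at 268, 2625, 5133 and 1218 CPM in many-gene cells, and a single count in C was its only one in few-gene cells. The ratio was 1924 with a counting interval of 345 to 76038, and 1035 without D and 1075 without H. Without C, the few-gene sum is 0 and the bound at least 568-fold. In adult cells Cd36 was counted in 7 of 8.

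Lpl, the lipoprotein lipase, was counted in every cell at 2022, 4662, 1112 and 4912 CPM against 22.5 (C), 1303 (E), 132 (F) and 5.81 (H) CPM. Cell E was above the lowest many-gene cell, and the 8.19-fold higher sum (7.21 to 9.34) was 71.4-fold without E and 4.61-fold without H. Eci2, an isomerase for unsaturated fatty acids, was at 1360, 515, 83.1 and 579 CPM, against 2 counts in H, a ratio of 245 (67.2 to 2029), 138 without A. Without H it was at least 91.2-fold higher. Fabp3, the abundant cytosolic carrier, had the opposite sign and overlapped, at 4339, 7359, 6048 and 4823 CPM against 3975, 6437, 9778 and 9607 CPM, 1.45-fold lower (1.39 to 1.51). Etfb, which takes electrons from the oxidation steps, was at a ratio of 0.987. The members lower by the 2-fold call were Echs1, Eci1 and Acadl, of which Echs1 and Eci1 act in the oxidation of fatty acids as hydratase and isomerase. Echs1 was at 21.1, 32.2, 102 and 559 CPM against 2219, 2115, 416 and 0 CPM, 5.72-fold lower (4.52 to 7.31), 15.9-fold without G, 2.94-fold without E and 10.2-fold without H. Eci1 had 1760 counts in H and none in C, E and F, and Acadl had counts in C and H alone among few-gene cells. The list thus held members in both directions, and its share called higher, 11 of 20, is to be read against 57.3% of all compared genes.

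At the sarcomere, Z-disc and titin genes had 8 of 16 compared members at least 2-fold higher and 1 lower, with a median log2 ratio of 0.99. Over all compared genes 57.3% were higher and 26.2% lower, with a median of 3.43, or 2.45 with zero sums at the floor. The list thus had a smaller share called higher, and a smaller median, than compared genes at large. Their share was 2.02% to 2.48% in many-gene cells, and of the few-gene cells only H was above the lowest of these, D. Among the counts of the 139 genes in all cells, 5 members took 2.85% to 3.24% in many-gene and 1.86% to 2.53% in few-gene cells, with no overlap. Ttn, the giant spring protein, was at 817, 7278, 2007 and 4303 CPM against 957, 1068, 529 and 1853 CPM. Its sum was 2.60-fold higher (2.41 to 2.81), 1.67-fold without B and 3.94-fold without H, and cell A lay inside the few-gene range. Pdlim5, a Z-disc scaffold, had 176, 1006, 44.8 and 89.9 CPM and a single count in C. The member that was lower was Cryab, a small heat shock protein that protects desmin and titin, at 2550, 1184, 2212 and 1827 CPM against 6532, 3121, 2775 and 5369 CPM, 2.23-fold lower (2.08 to 2.40) without overlap. Without B or H it was 1.98-fold and 1.86-fold lower.

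Thick filament genes had 4 of 7 compared members at least 2-fold higher and 1 lower, with a median log2 ratio of 1.28, and thin filament genes 3 and 2 of 8, with 0.06. Neither list had a larger share called higher (57.1% and 37.5%) than all compared genes (57.3%), and both medians were below theirs. Myl2, the ventricular regulatory light chain, was at 40961, 26787, 33620 and 36963 CPM against 45914, 45793, 47742 and 49291 CPM, 1.38-fold lower (1.35 to 1.40) without overlap. The few-gene cells lay between 45793 and 49291 CPM, closer together than the many-gene cells. Myh6, the adult mouse myosin heavy chain, was 2.42-fold higher with overlap and 1.54-fold without H. Actc1, cardiac actin, was 2.11-fold lower, and 1.78-fold to 1.91-fold without E, G or H. Tnni3 was at a ratio of 0.927 and Tpm1 at 1.18, each with overlap. Actin and myosin genes have near-identical relatives, so their counts are uncertain.

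Fkbp3, a nuclear proline isomerase, was at 606, 201, 1336 and 409 CPM against 3761, 1962, 1625 and 2034 CPM. It was 3.09-fold lower (2.75 to 3.47), the largest difference among the 8 lower genes without overlap, and 5.14-fold lower without D. Gapdh and Cox7c had few reads in every cell (2 to 28 and 7 to 64 counts) and have near-identical processed copies in the genome, so their levels are uncertain. Gapdh was 2.44-fold lower (1.41 to 4.46) and Cox7c 1.79-fold lower (1.29 to 2.51). How firmly the 9 genes stand apart depended on the scaling. Scaling to the 139 shared genes or by size factors ended the separation of Atp5g3, Atp5j2 and Ndufv3, and TMM factors that of Atp5g3, Cox7c, Cryab and Myl2. Atp2a2, Fkbp3 and Gapdh stayed apart under all of these scalings, and Cox8b, 1.64-fold higher as deposited, was added by each. Gapdh was no longer among the genes apart with a minimum of 5 counts in each cell or after thinning, nor was Cox7c after thinning. Atp2a2 and Fkbp3 stayed in both.

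**Figure D5:**
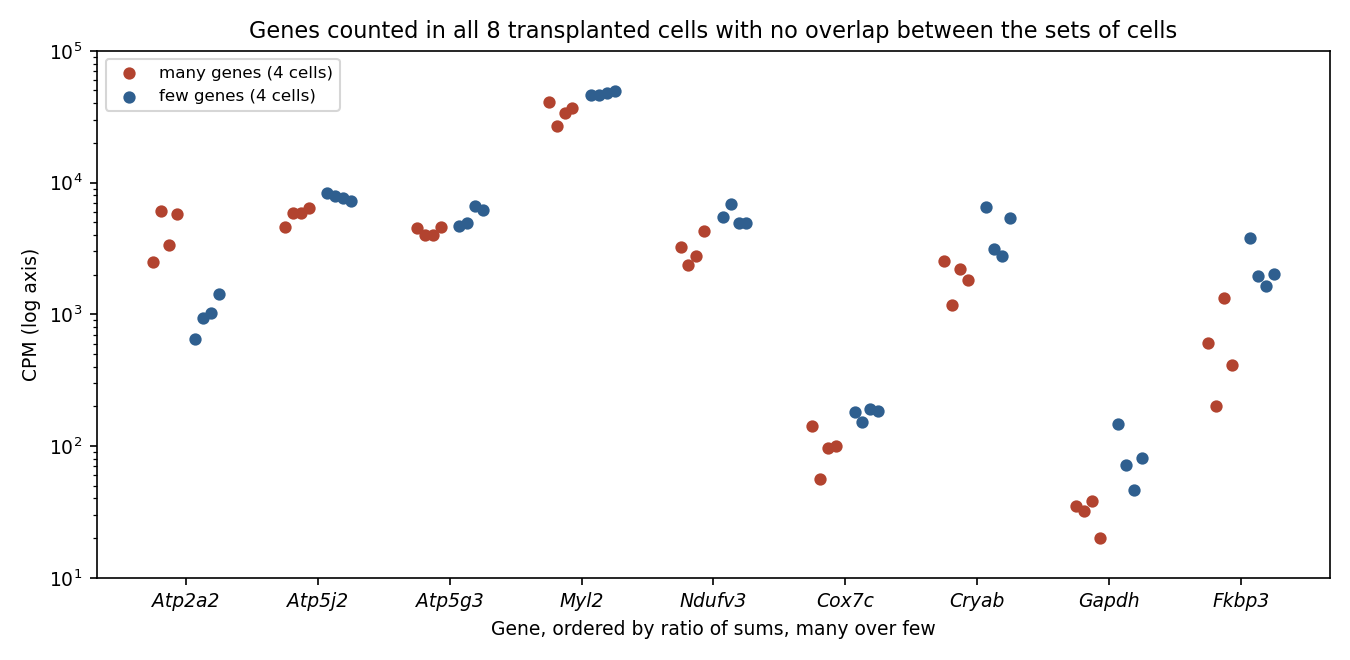
Level in CPM (log axis) of the 9 genes counted in all 8 transplanted cells whose many-gene and few-gene values do not overlap; points are cells, ordered by the ratio of sums. Atp2a2 is higher in all 4 many-gene cells, and the gap is narrow for Atp5g3, where 4573 and 4640 CPM are neighbours.

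Among regulators, counts were sparse. Chromatin genes had 8 of 9 compared members at least 2-fold higher and none lower, and cardiac transcription factors 5 of 6 and none lower, against 57.3% and 26.2% of all compared genes. Each of these genes was counted in only 1 or 2 many-gene cells, for example Myocd in G and both Hdac2 and Hopx in B and G. The chromatin list took 0.228% of counts at most, and no few-gene cell counted more than 1 of its genes. Chaperones had 9 of 15 members higher (60%) and 4 lower (26.7%), near the shares of all compared genes. Their 3 members with most counts went both ways. Hsp90ab1 was 3.23-fold higher, and 1.81-fold without H. Cryab was 2.23-fold lower and Hspb6 1.31-fold lower. Hspa5, the chaperone of the endoplasmic reticulum, was at 394, 700, 32.0 and 89.9 CPM against 2 counts in C, a ratio of 117 (31.9 to 976), 68.5 without B and 65.5 without H. Without C it was at least 69.2-fold higher. Hspa8, its cytosolic relative, was at 394, 258, 371 and 349 CPM against 0, 169, 231 and 0 CPM.

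Translation and protein turnover genes stood in both directions. Each count in this paragraph is to be read against 57.3% higher and 26.2% lower of all compared genes. Translation factors had 12 of 20 members higher (60%) and 6 lower (30%), near those shares. Cytosolic ribosomal proteins had 12 (24%) and 12 (24%) of 50, and the proteasome and ubiquitin list 11 (39.3%) and 12 (42.9%) of 28. The shares of ribosomal protein genes overlapped, with 0.547% in D and 0.686% in H as the lowest of each set. Glycolysis had 3 higher and 4 lower of 13, the TCA cycle 7 and 3 of 20, mitochondrial carriers 5 and 1 of 17, and muscle energy buffers such as Mb and Cox6a2 0 and 0 of 6. Immediate early genes, which respond quickly to stimuli, had 3 higher and 1 lower of 4 compared, from 1 or 2 cells in each set. Fos was counted in D alone (799 CPM), Nr4a1 in B and D (620 and 639 CPM), and Dusp1 in A and F (268 and 126 CPM). The lower gene, Btg2, was at 2005 CPM in C and 1145 CPM in H, with 1 count in the many-gene cells, in G.

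All 12 cardiomyocyte markers were counted in each many-gene cell and 10 to 12 in each few-gene cell, with shares of 11.9% to 15.7% and 14.3% to 20.4%. Of 5 listed pluripotency markers only Sox2 was counted, and it had counts in all 8 cells. Sox2 was at 16.1 to 148 CPM in many-gene and 119 to 372 CPM in few-gene cells, with overlap. Its sum was 2.97-fold lower (2.09 to 4.32), and 2.39-fold to 4.69-fold lower when a cell was left out. Adult cells had 50.8 to 7616 CPM. Markers of the other cell types were near 0. None of the 7 listed markers of conduction cells was counted, nor of the 3 of macrophages and leukocytes, the 3 of neural cells and the 4 of other embryoid body cells, and fibroblast markers reached 0.003% and atrial markers 0.002% at most. Endothelial markers summed to 0% in A and B, 0.062% in D and 0.173% in G, and to 0.003% at most in few-gene cells. They were Fabp4 (620 CPM in D, 1088 in G and 32.0 in H), Ly6c1 (629 in G) and 1 count of Pecam1 in G. Smooth muscle and pericyte markers reached 0.044% in G. Whether RNA of other cell types had a part in the shares of the lists above was not tested. The ribosomal precursor Rn45s took 1.15% to 1.54% and 0.547% to 1.78% of counts, with overlap, and Malat1 was 4.91-fold higher, 2.60-fold without G, 2.99-fold without H and 23.0-fold without F.

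The adult cells, from which nothing was chosen, spanned 635 to 1701 genes. Across these 8 cells, which share a species, a protocol and a mouse reference, Spearman's rho between gene number and the share of a list was 0.67 for excitation-contraction coupling, 0.79 for fatty acid oxidation and 0.86 for chromatin. It was 0.02 for complex I, 0.17 for complexes II to V, 0.10 for the Z disc and titin, 0.00 for translation factors, -0.02 for cardiac transcription factors and -0.86 for thin filament genes. For single genes it was 0.48 for Atp2a2, 0.12 for Fkbp3, 0.24 for Cryab and 0.07 for Myl2. For the pluripotency markers it was -0.76. For the median exon length it was 0.40 over the counted genes and -0.14 when weighted by counts. The chromatin value rests on few reads, since that list took 0% to 0.040% of an adult cell's counts. A share this sparse depends on whether its genes were counted at all. Among adult cells the coupling share was thus higher where more genes were counted, and the complex I share had no such order, as a description of 8 cells. Against the adult sum, Spearman's rho over the 139 shared genes was 0.878 to 0.892 in many-gene and 0.867 to 0.888 in few-gene cells, and between pairs of transplanted cells it was 0.808 to 0.855 (median 0.830) within many-gene, 0.765 to 0.863 (0.793) within few-gene and 0.729 to 0.864 (0.793) between the sets. The ranges overlapped, and the median was highest within the many-gene cells.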

How the data were processed

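Single-cell cDNA was made with a template-switching reverse transcriptase, amplified by PCR and cut with Tn5, per the labels' protocols, with no molecular identifiers stated. The authors deposited raw counts, a whole number for each gene in each cell. The submitters' processing notes name TopHat2 2.1.0, HTSeq, DESeq2 and mm10, without their roles. The annotation, the strand setting and how the 9595 genes were chosen are not stated there or in the labels. Reads of near-identical or antisense genes may therefore be misplaced.

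Counts were summed over the 4 many-gene and the 4 few-gene cells and divided by the totals (Python 3.11.15, pandas 2.3.3). Genes with at least 10 counts over 8 cells were compared, 2-fold being called. A zero sum was set to 3 counts. List medians use a pseudocount of 1 CPM. Intervals are exact 95% conditional binomial ones and cover counting error only, since PCR reads are not molecules. They were tried on counts simulated with no variation between the cells of a set. That is what the intervals assume, so the trial cannot show how well they hold for these cells. Without named animals no test was made. Scaling alternatives used TMM (edgeR 4.0.16) and size factors (DESeq2 1.42.0), with no model fitted. Positions and union exon lengths are from GENCODE M21, which matched 99.0% of symbols.

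The cells, the 39 gene lists and the rule for named genes were chosen with earlier results of these data known. By the rule, the named genes are shared genes without overlap and at least 50 CPM (10 highest and 10 lowest ratios), the 8 highest genes in 4 of 4 many-gene and no few-gene cells and the 5 highest of the reverse, the 3 highest members of each list, the 10 highest genes, and Rn45s, Malat1, Xist and Rpph1. The rankings skip genes of ribosomal proteins and gene models named Gm or Rik. Other genes in the text were named after their values were seen. Samples were grouped by titles and replicate letters only name cells.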

Additional observations from a re-analysis of the deposited data

Results flagged for a closer look

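A cell was marked when it stood further from the other 3 cells of its set than Dixon's 95% critical value allows, as a part of the set's range. This held for 17 of 129 sets of values, where chance alone marks about 1 in 20, and the sparse lists are marked whenever 3 cells are at 0. After thinning, cell F had 635.9 genes against 549.5 to 562.6 in C, E and H, so the few-gene cell nearest the threshold stood apart from the other few-gene cells. Cell F also had the lowest share of thin filament genes, 9.81% against 12.5% to 12.7%. Cell E had 17405 CPM of Cox6a2, the heart and muscle form of a cytochrome oxidase subunit, against 12277 to 12672 in the other few-gene cells. The median exon length weighted by counts was 1950 bp in C and 2044 bp in E, F and H.

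Cell B had the lowest glycolysis share, 1.02%, against 2.33% to 2.60% in the other many-gene cells. Cell D had 15375 CPM of Rn45s, which is 1.54% of its counts, against 11532 to 12021 CPM. Cell H had 0.158% of muscle atrophy and autophagy genes against 0.449% to 0.476% in C, E and F. Interferon response genes took 0.0486% in A and 0.0935% in E, from B2m and Ifi27, and none in the other cells of each set. The remaining values were below 0.05%: 0.0180% of chromatin genes and 0.00320% of endothelial markers in H, 0.00971% of cardiac transcription factors and 0.000511% of fibroblast markers in E, 0.00225% of atrial markers in C, and 0.00300% of fibroblast and 0.0439% of smooth muscle and pericyte markers in G.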

How the results depend on the processing

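The split of 1299 genes at least 2-fold higher and 594 lower kept its direction under equal cell weights, TMM, size factors, thinning, a minimum of 1 count and the shared-gene denominator. This direction is largely fixed by the choice of cells under any scaling. Of the compared genes, 1048 were at 0 in the few-gene cells and 325 in the many-gene cells. A minimum of 50 counts gave 727 higher. Leaving out each cell gave 948 to 1352 higher and 460 to 617 lower. For genes in all cells without overlap, 1 higher became 3 with the shared-gene denominator, 3 with TMM and 2 with size factors, and 1 to 6 without a cell, while 8 lower became 5, 4 and 5, and 8 to 17 without a cell. With 5 counts as the minimum for a gene, the few-gene median was 515 genes. Of 18 list medians of at least 2-fold, 3 turned sign: immature isoforms (1.38), at -0.20 with a minimum of 1 count and -2.53 (without G) to 4.69 when a cell was left out, RNA splicing (1.95), at -5.13 with a minimum of 50 counts, -2.40 without B, and -2.80 (without G) to 4.69 when a cell was left out, and cell cycle (-2.07), at -5.05 to 2.07 (without E) when a cell was left out. Of 15 medians under 2-fold, 8 turned sign when a cell was left out. Of the 242 ratios of at least 2-fold among the list members and other genes followed, 25 turned when a cell was left out, and 100 of 164 under 2-fold. Examples are Ctsb (0.0147 to 50.3, the latter without C), Eif3k (0.0112 to 40.2, without E), Prdx5 (0.233 to 1.89, without H), Eci1 (0.00116 to 22.5, without H), Acadl (0.180 to 1.37, without H), Dusp1 (0.323, without A, to 15.2) and Rbm24 (0.163, without B, to 26.1), and in each the named cell held most of its set's counts. The cause of other changes was not tested. The shared-gene shares of 7 lists were chosen after seeing the data. No paired analysis was possible because the letters only name cells. A gene at 0 in a sum can still be present at up to 5.74 CPM (many-gene) or 3.85 CPM (few-gene), 3 counts of the total, for counting error only: transcripts lost before amplification are not covered.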
